A study of Mus musculus with 4 samples.

Results

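Mad1l1, Agap1, Rbfox3, Sh3pxd2a, Sorcs2, Trappc9, Slc39a11, Cmip, Sdk2 and Prex1 were the 10 genes with the most DNMT3B-enriched islands in 4T1 lung metastases, out of 4020 genes that the deposited island list names. They were chosen by that count, so the counts below describe the choice and were not tested. Together they held 195 of 8242 islands (2.37%). All are long, with a median of 317 kb between the deposited gene ends against 19.6 kb for the other 4010 genes. Prex1 was the shortest at 147 kb. Chromatin of lung metastases of 4T1, a mouse mammary tumour cell line grown in BALB/c mice, was immunoprecipitated with an antibody against DNMT3B and sequenced. There were 2 DNMT3B ChIP libraries and 2 input libraries without immunoprecipitation, each kind numbered lung 3 and lung 5. The labels name no other treatment, genotype or age. A lung metastasis also holds host lung cells, and the labels do not say how far the tumour cells were separated from them. The name of the deposited island list marks it as a top selection, and the sources used here do not state the criterion, so a gene without a listed island may have had a weaker one. The lists hold positions and gene names only, so no value belongs to a library, the depth is unknown, and neither the repeatability between lungs nor the cell type of origin could be examined.

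DNMT3B is a DNA methyltransferase that places methyl groups on previously unmethylated cytosines, mainly where a cytosine precedes a guanine (CpG). In mouse stem cells it is recruited to the bodies of transcribed genes through a domain that reads a methylated lysine of histone H3. Long genes offer much gene body, most of it intron, in which broad enrichment can lie. An island is a stretch of enriched windows joined by SICER, a caller made for broad signals. A narrow region is a call by MACS, a caller made for sharp signals.

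The 10 genes differ in function. Mad1l1 encodes a spindle checkpoint protein that brings MAD2 to unattached kinetochores. Sh3pxd2a encodes TKS5, a scaffold of invadopodia, the protrusions with which invasive cells degrade matrix. Prex1 encodes an exchange factor that activates the GTPase Rac, Agap1 a GTPase-activating protein for Arf proteins that acts in endosomal traffic, and Cmip an adaptor protein described in T-cell signalling. Trappc9 encodes a subunit of the TRAPP II tethering complex, Sorcs2 a sorting receptor of the VPS10 family, and Slc39a11 a zinc transporter. Rbfox3 encodes the neuronal splicing factor NeuN, and Sdk2 an adhesion molecule of the immunoglobulin superfamily that is known from retinal synapses.

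Mad1l1 had 25 islands, Agap1 24, Rbfox3 21, Sh3pxd2a 20, Sorcs2 and Trappc9 19 each, Slc39a11 and Cmip 18 each, Sdk2 16 and Prex1 15. Of all 4020 genes, 0.249% had 15 islands or more, and these were the 10 genes. Just outside lay Rxra and Zfhx3 with 14 islands each, then Tns3, Col18a1, Septin9 and Rptor with 13 each. The step from the last gene inside to the first outside was thus 1 island. Of the 4010 other genes, 2150 (53.6%) had a single island. The list names Cmip by an older name, 4933407C03Rik, and splits its islands over 2 transcripts, with 7 under the longer one and 11 under the shorter one that lies within it. The longer transcript stood for the gene, and for the other 9 genes all islands were paired with 1 transcript.

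**Figure D1:**
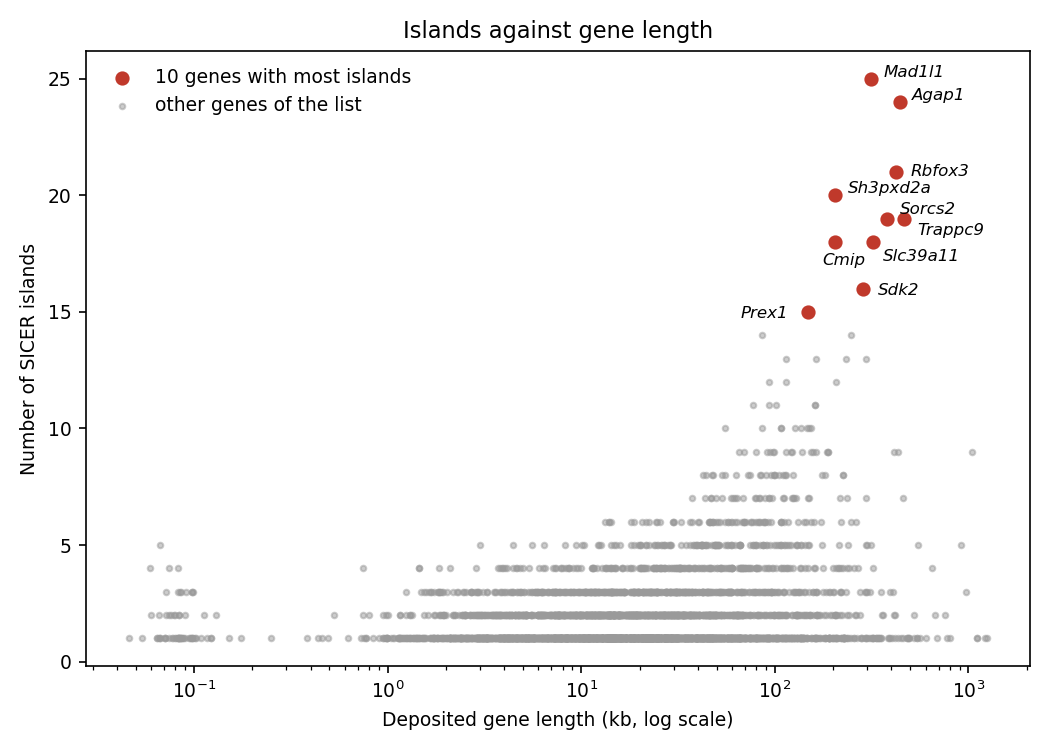
Number of SICER islands (vertical axis) against deposited gene length in kb (horizontal log axis) for 4020 genes, with the 10 genes with most islands in red and the other genes in grey. The red points run from 15 to 25 islands, and the grey points reach 14.

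Most listed genes of similar length had few islands. Of 66 listed genes of at least 300 kb, 6 were among the 10. The other 60 had a median of 1 island and at most 9, and 39 of them had 1. Of 557 protein-coding genes of at least 300 kb in RefSeq, 14.004% were named in the island list at all, against 17.2% of all protein-coding genes. Since the 6 genes were chosen for their counts, their place above the other 60 describes the choice.

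Per 100 kb of gene, the 10 genes together had 6.13 islands, against 1.43 for the 408 other listed genes of at least 100 kb. The count that chose the genes enters this density, so the gap is a description of them. Prex1 was the densest at 10.2 islands per 100 kb and ranked 4 of 418 genes of this length. Sh3pxd2a had 9.79 (rank 5), Cmip 8.80 (rank 8) and Mad1l1 7.99 (rank 10). The other 6 genes were less dense, with Sdk2 and Slc39a11 at 5.61 each, Agap1 at 5.45, Rbfox3 at 5.002, Sorcs2 at 4.99 and Trappc9 at 4.08. Of the 418 genes, 17.0% were at least as dense as Trappc9, and Col18a1, Lrp5 and Nfatc2 lay above Prex1. At 200 kb and more, 13 of 151 genes reached that density, and 9 of the 13 were among the 10 genes. The other 4 were Zmiz1, Zfhx3, Tns3 and Rptor.

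Cmip was the most covered. Its islands took up 81.6% of the gene body, which ranked 2 of the 418 genes, behind Septin9 at 91.0%. Mad1l1 was covered over 49.1% of its body, Sh3pxd2a over 45.1%, Agap1 over 38.5% and Prex1 over 37.5%. Slc39a11 (33.5%), Rbfox3 (31.4%), Trappc9 (31.0%) and Sorcs2 (25.7%) followed, and Sdk2 was lowest at 17.9%. Thus many islands did not mean a covered gene: Sdk2 and Cmip differed by 2 islands and lay at opposite ends of this range. The median over the 10 genes was 35.5%, against 4.22% over the other 408 long genes, whose quartiles were 1.47% and 12.6%. Coverage at least that of Sdk2 was found in 20.6% of the 418 genes. For every gene, only islands paired with it entered these shares. Islands inside Trappc9, Sorcs2, Agap1, Rbfox3 and Mad1l1 that the list pairs with another gene are left out, so the order of the genes could change with them.

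**Figure D2:**
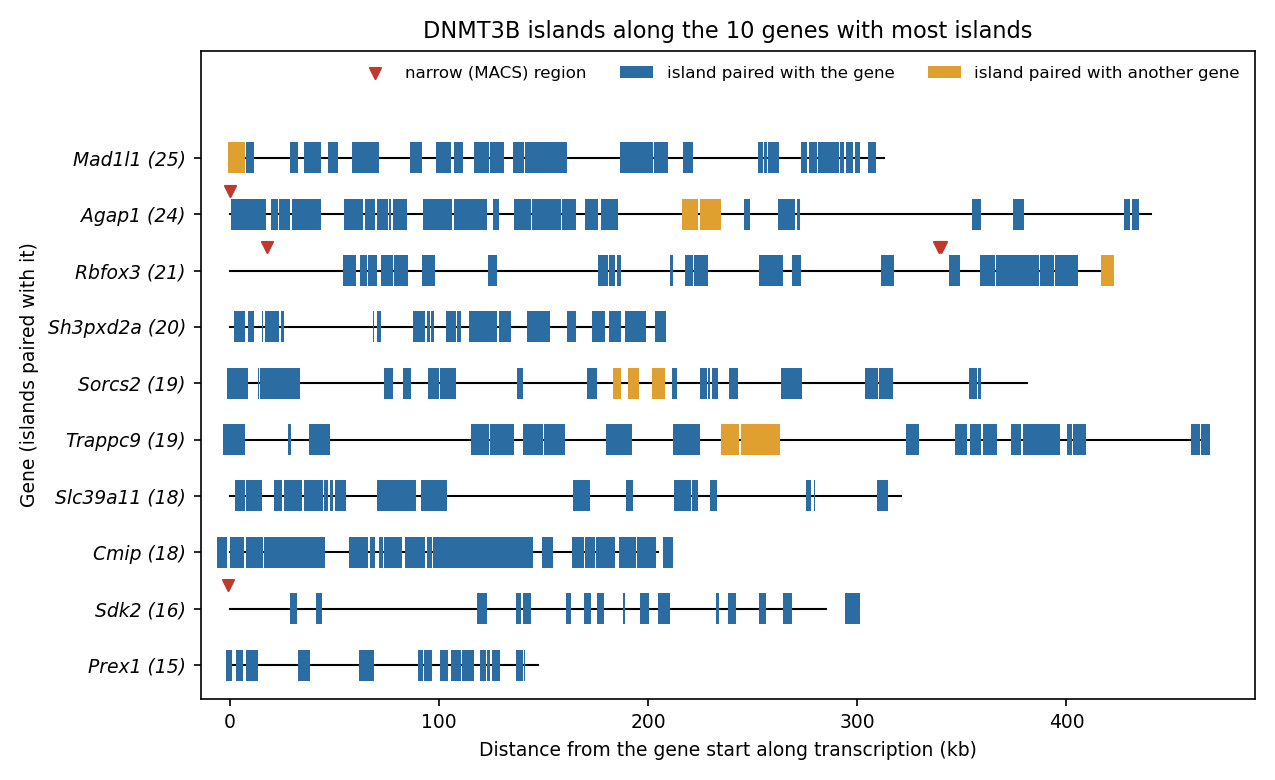
Islands along each of the 10 genes, drawn to scale in kb from the gene start in the direction of transcription, with the number of paired islands in parentheses. Blue bars are islands paired with the gene, orange bars islands inside it that the list pairs with another gene, and red triangles narrow regions; Cmip is nearly filled, and the first 53.9 kb of Rbfox3 hold no island.

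Individual islands in the 10 genes were about as wide as elsewhere. The middle one measured 5000 bp and the quartiles were 3100 and 7400 bp, against 4800 bp, and quartiles of 3000 and 7600 bp, for the 8047 islands of other genes. Islands of 15 kb or more made up 5.13% of islands in the 10 genes and 4.996% elsewhere. The 10 genes thus carried more islands of ordinary width. Cmip had the largest median at 7400 bp and the widest island at 47800 bp, and Trappc9 followed with a median of 6600 bp. Sdk2 and Prex1 had the smallest medians, 3600 bp each, and their widest islands were 7200 and 7400 bp. Widths within a gene spanned a wide range in each case, for example from 400 to 18800 bp in Slc39a11 and from 600 to 19000 bp in Sorcs2.

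**Figure D3:**
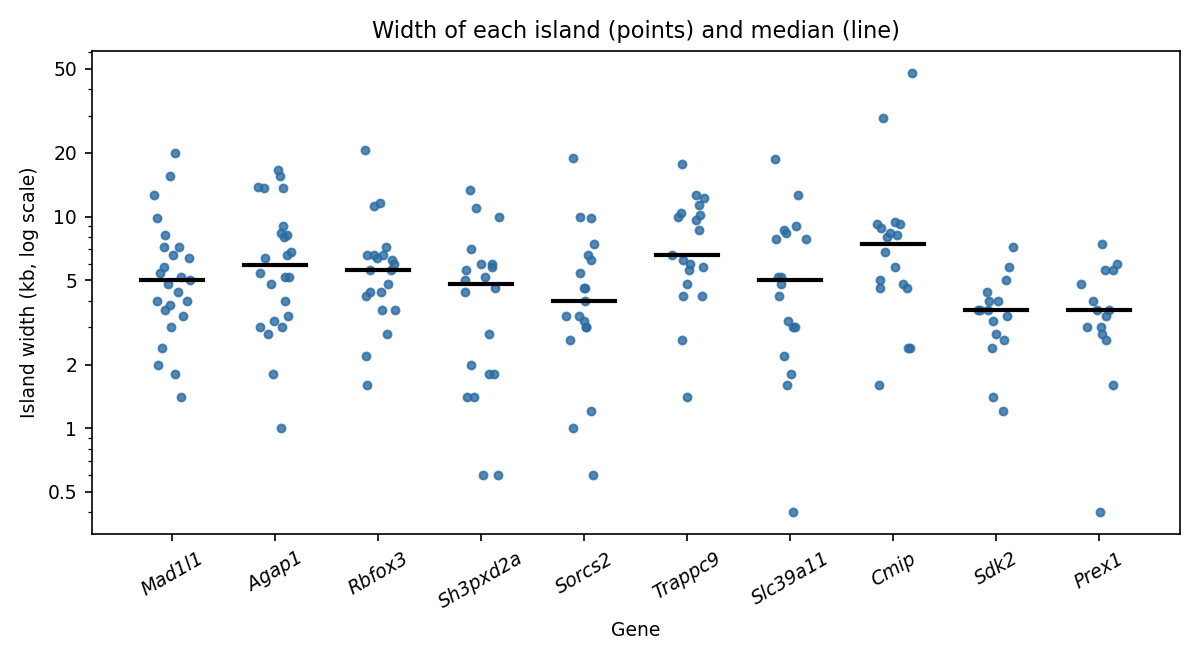
Width in kb (vertical log axis) of each island of the 10 genes, as points, with a line at each gene's median. Medians lie between 3.6 kb in Sdk2 and Prex1 and 7.4 kb in Cmip, and single islands range from 0.4 to 47.8 kb.

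Islands came in runs. Of 185 gaps between neighbouring islands of a gene, 82 (44.3%) were under 2 kb, and the smallest was 600 bp, as in the whole list. No such share is given for other genes, so it is not read as particular to the 10 genes. Joining islands less than 5 kb apart left 12 stretches in Sdk2, 11 in Sorcs2, 10 each in Mad1l1, Rbfox3 and Trappc9, 9 each in Agap1 and Slc39a11, 7 in Sh3pxd2a, 5 in Prex1 and 3 in Cmip. The longest joined stretch was in Cmip, 97.4 kb with 8 islands (119837800 to 119935199 on chromosome 8). In Prex1, 8 of 15 islands fell in a stretch of 39.2 kb. Sdk2 was the most scattered, with a longest stretch of 14.8 kb and a median gap of 8800 bp. The number of islands thus depended on the joining distance, most of all in Cmip and least in Sdk2.

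Positions are given as deposited. The submitters' processing notes name mm10, yet for none of the 10 genes did the deposited end lie within 1 kb of that in RefSeq for GRCm38, the same assembly. The deposited length was within 2% of RefSeq for 9 of the 10. The build of these positions is thus not known, and distances within a gene are used below in preference to positions.

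Mad1l1 (transcript NM_010752, chromosome 5, 140484642 to 140797506, minus strand) carried islands along its whole length, with 12 midpoints in the first 50% of the gene and 13 in the rest. Its widest island, 20000 bp, lay near the middle, at 48.3% of the way from start to end. The nearest of its own islands lay 7.71 kb inside the start. An island of 8000 bp from 140790400 to 140798399 did cover the start, but the list pairs it with the neighbouring gene Mrm2, named there Ftsj2. The largest gap in Mad1l1 was 31.2 kb.

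Agap1 (NM_178119, chromosome 1, 91351385 to 91791857, plus strand) was filled towards its start. Of its 24 island midpoints, 17 (70.8%) lay in the first 50% of the gene, as did 83.1% of the covered bases. The widest, 16600 bp, began 615 bp inside the gene. A gap of 82.2 kb lay towards the end. A narrow region listed from 91351300 to 91351400 crossed the gene start as listed, from 85 bp before it to 15 bp inside. By the deposited wording 14.9% of it overlapped the gene. The positions of this region are rounded to 100 bp, so whether it crossed the start is uncertain. Agap1 thus had a sharp call at or close to its start, followed within the first kilobase by a broad one.

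Cmip (NM_001163262, chromosome 8, 119780918 to 119985405, plus strand) had 9 island midpoints in the first 50% of its body, 7 in the rest and 2 outside. The start of this longer transcript fell in the space between 2 islands, 82 bp before the nearer one. The start of the shorter transcript, at 119873069, lay inside an island of 9200 bp (119864800 to 119873999). The widest island, 47800 bp, was centred at 59.3% of the gene, and no gap exceeded 11.2 kb. Prex1 (NM_177782, chromosome 2, 166391844 to 166539332, minus strand) leaned towards its end, with 4 midpoints in the first 50% and 10 in the rest. By covered bases the lean was milder, with 41.4% in the first 50%. An island of 3000 bp covered its start.

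The start regions of these 4 genes are shown because each had an island or a narrow region across or within 1 kb of the start, and because the distance from the RefSeq start to the far gene end was within 5 bp of the deposited gene length. Each window runs from 250 bases before to 50 after the start, from RefSeq on GRCm38.p6, with CG in capitals: Mad1l1 at chr5:140321503-140321802 (minus strand), Agap1 at chr1:89454561-89454860 (plus), Cmip at chr8:117256769-117257068 (plus) and Prex1 at chr2:166713783-166714082 (minus).
Mad1l1: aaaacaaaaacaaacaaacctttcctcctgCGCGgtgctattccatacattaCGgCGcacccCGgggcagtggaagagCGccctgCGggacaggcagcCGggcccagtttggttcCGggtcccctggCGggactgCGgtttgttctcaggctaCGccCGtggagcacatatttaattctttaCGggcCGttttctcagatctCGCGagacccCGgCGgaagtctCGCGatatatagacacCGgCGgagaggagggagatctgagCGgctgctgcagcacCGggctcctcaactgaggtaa
Agap1: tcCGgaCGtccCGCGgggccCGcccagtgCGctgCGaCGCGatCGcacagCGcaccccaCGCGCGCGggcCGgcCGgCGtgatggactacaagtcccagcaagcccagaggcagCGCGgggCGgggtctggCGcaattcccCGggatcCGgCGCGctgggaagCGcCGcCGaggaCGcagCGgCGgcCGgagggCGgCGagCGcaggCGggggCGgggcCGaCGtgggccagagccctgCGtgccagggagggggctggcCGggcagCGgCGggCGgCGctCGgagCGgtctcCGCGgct
Cmip: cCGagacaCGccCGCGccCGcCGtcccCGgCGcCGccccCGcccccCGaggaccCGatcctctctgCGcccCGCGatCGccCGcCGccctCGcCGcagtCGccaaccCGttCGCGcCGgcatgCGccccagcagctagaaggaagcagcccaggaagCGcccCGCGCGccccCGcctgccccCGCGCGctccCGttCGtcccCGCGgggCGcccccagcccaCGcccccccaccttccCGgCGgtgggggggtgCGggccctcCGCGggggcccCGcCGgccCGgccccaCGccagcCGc
Prex1: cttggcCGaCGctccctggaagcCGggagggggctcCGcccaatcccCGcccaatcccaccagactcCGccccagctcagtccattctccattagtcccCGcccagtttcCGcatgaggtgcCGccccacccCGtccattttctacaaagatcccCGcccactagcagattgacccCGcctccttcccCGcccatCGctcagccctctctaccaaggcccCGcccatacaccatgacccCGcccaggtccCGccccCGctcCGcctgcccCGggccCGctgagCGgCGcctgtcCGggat
Agap1 and Cmip each had 50 CG in the window, a number reached by 0.855% of 32851 RefSeq windows of this length, whose median was 7. Mad1l1 had 25, reached by 18.4%, and Prex1 had 24, reached by 19.98%. CG was searched as these 2 letters, which read the same on both strands. In Prex1 the letters CCGCCC occurred 10 times and the complementary GGGCGG did not occur. Agap1 had 4 GGGCGG and 1 CCGCCC, Cmip had 3 CCGCCC, and Mad1l1 had none of either. One or both occurred in 35.7% of all windows. The 4 starts shown are thus all richer in CG than the median window, and those of Agap1 and Cmip are at the extreme. For Cmip this holds for the start of the longer transcript only. The window at the start of its shorter transcript, under which 11 of its 18 islands are listed, had 5 CG. That number was reached by 61.96% of windows. Mad1l1 also had a second RefSeq window, which did not match the deposited start. It had 3 CG, reached by 76.7% of windows. The windows of the other genes are not shown: RefSeq windows were matched to 7 of the 10 genes, and not to Sh3pxd2a, Sorcs2 and Trappc9. The Rbfox3 and Sdk2 windows did not match the deposited start, and in Slc39a11 the nearest island lay 2.33 kb from it. The Sdk2 window had 41 CG, reached by 3.46% of windows, although its nearest island lay 28.9 kb from the deposited start. The Slc39a11 windows had 14 and 13 CG and the Rbfox3 window 4. The 4 windows shown were chosen by nearby calls, so no link between CG and calls is read from them.

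Sh3pxd2a (NM_008018, chromosome 19, 47334663 to 47538901, minus strand) had 10 island midpoints in the first 50% of its body and 9 in the rest, but the covered bases lay mostly in the rest, with 30.8% in the first 50%. Its widest island, 13400 bp, was centred at 59.3% of the gene, and one of 5200 bp covered the gene end. A gap of 42.2 kb separated the 5 islands nearest the start, of 600 to 7000 bp, from the others. Sorcs2 (NM_030889, chromosome 5, 36359829 to 36740788, minus strand) had its 2 widest islands, 19000 and 10000 bp, towards the start. That of 10000 bp covered the start itself, and that of 19000 bp began 14.6 kb inside the gene.

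Trappc9 (NM_029640, chromosome 15, 72420049 to 72886242, minus strand) had both ends covered, the start by an island of 10400 bp and the end by one of 4200 bp. Its largest gap between paired islands, 98.8 kb, was not empty. Within it lay 2 islands that the list pairs with Peg13, from 72623000 to 72641799 (18.8 kb) and from 72642600 to 72651399 (8.8 kb). Peg13 is an imprinted noncoding RNA gene that is expressed from the paternal copy and lies within Trappc9 in the deposited positions. The wider of these islands covered the deposited Peg13 interval, 72636029 to 72640754, and was wider than any island paired with Trappc9, of which the widest had 17800 bp. Which allele was enriched cannot be read from the lists.

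In all, 9 islands inside 5 of the 10 genes were paired with another gene, a count made after the data were seen. Sorcs2 held 3 that were paired with Psapl1, a short gene within it, Agap1 held 2 paired with 4933400F21Rik, and Rbfox3 and Mad1l1 held 1 each at an edge, paired with Engase and Mrm2. The Engase island covered the end of Rbfox3. Counting these would bring the 195 islands to 204.

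Slc39a11 (NM_001166503, chromosome 11, 113106168 to 113427129, minus strand) was dense near its start, with 10 of 18 midpoints and 69.1% of the covered bases in the first 50% of the gene. RefSeq gives this gene a length of 405 kb, against 321 kb as deposited, so part of the RefSeq gene lies outside the deposited one. Rbfox3 (NM_001039168, chromosome 11, 118351073 to 118770886, minus strand) had no island in its first 53.9 kb. Its widest island, 20600 bp, lay at 89.7% of the gene, in a joined stretch of 47.2 kb. Sdk2 (NM_172800, chromosome 11, 113642103 to 113927265, minus strand) also had an empty start: the nearest island was 28.9 kb away. Only 5 of its 15 midpoints inside the gene lay in the first 50%, and its widest island, 7200 bp, lay beyond the gene end, 8.90 kb downstream. Rbfox3 and Sdk2 were thus the genes whose starts lay farthest from their own islands.

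Over all 10 genes the islands were split evenly about the gene middle: 95 of 189 midpoints inside the genes lay in the first 50% (50.3%, exact 95% binomial interval 42.9 to 57.6, counting error only). The other genes of at least 100 kb had 43.1% there (483 of 1121). With each gene divided into 10 bins of equal length, the last bin held 10.6% of midpoints in the 10 genes and 17.6% in the other long genes, while bin 1 held 12.7% and 8.56%. Bin 9 was the fullest in the 10 genes, with 14.8%, and bins 3, 6 and 8 held least, with 7.41% each. Islands of a gene are not independent, and listed islands lie within 10 kb of a gene, so these shares were not tested. The even split hid differences between genes, from 28.6% in the first 50% for Prex1 to 70.8% for Agap1.

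**Figure D4:**
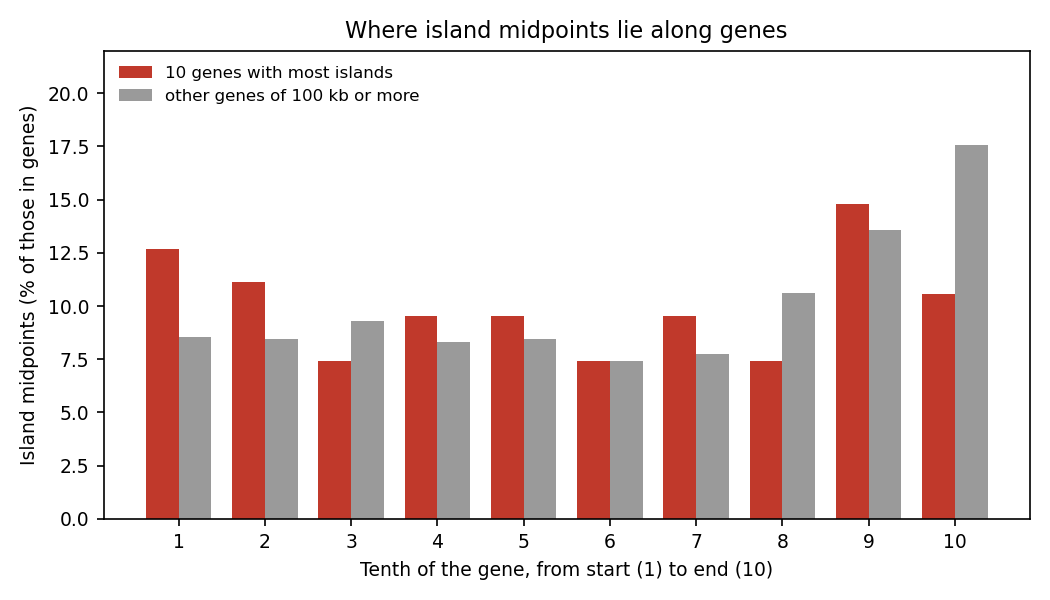
Share of island midpoints (vertical axis, % of midpoints inside genes) in each of 10 bins of equal length from gene start to gene end, for the 10 genes (red, 189 midpoints) and the 408 other genes of at least 100 kb (grey, 1121 midpoints). The grey bars are highest in bin 10, at 17.6%, where the red bar is at 10.6%.

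Gene starts were covered by a paired island in 3 of the 10 genes (Sorcs2, Trappc9 and Prex1) and gene ends in 2 (Sh3pxd2a and Trappc9). The background was 14.6% for starts and 10.8% for ends over the 418 genes of at least 100 kb, and 31.4% and 26.2% over all 4020 genes. With islands of any gene counted, 4 starts and 3 ends were covered, against 17.5% and 18.9% of the 418 genes and 37.8% and 34.7% of the 4020. Counts this small, beside these shares, show nothing particular to the 10 genes. Agap1 and Cmip had an island within 2 kb of the start but not across it. Cmip was counted by its longer transcript, and the start of its shorter one lay inside an island.

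Narrow regions were few. The MACS list held 1704 distinct regions, of which 5 named one of the 10 genes. As listed, 3 lay in introns of Rbfox3, 1 across the start of Agap1 and 1 upstream of Sdk2. The other 7 genes had none. Of all 4020 listed genes 13.9% were named by a narrow region, and of the 418 long ones 17.7%, so 3 of 10 is not far from the background. The Rbfox3 regions were listed at 118431000, 118432000 and 118753000 on chromosome 11, the last 17.9 kb inside the start in the stretch without islands. The Sdk2 region was listed at 113928000, 734 bp upstream of the gene by the deposited distance. Positions on chromosome 11 are rounded to 1000 bp there, so the side of the Sdk2 start is uncertain, as is the width of all 4 regions.

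None of these 5 narrow regions lay in an island, whereas 30.6% of all narrow regions did (521 of 1704). The Agap1 region was 0.6 kb from the nearest island, the first 2 Rbfox3 regions 3.80 and 4.80 kb, the Sdk2 region 29.6 kb and the third Rbfox3 region 36.0 kb. Widening each region by its rounding step still gave 0 of 5. In the 3 genes with a narrow region, the listed sharp and broad calls thus fell at different places. These 5 regions, 3 of them in Rbfox3, are too few for a comparison with the whole list.

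Relatives of the 10 genes were listed about as often as genes in general. In families listed with earlier results known, 12 of 53 relatives (22.6%) had a listed island, 7 (13.2%) had 2 or more, and 5 (9.43%) had a narrow region. Over all RefSeq protein-coding genes the shares were 17.2%, 8.16% and 6.14%, so the relatives were not poorer in calls than other genes, and nothing particular to them is read from these counts. None of the 7 other spindle checkpoint genes, such as Bub1 and Ttk, had a listed island. Among ArfGAPs with ankyrin repeats, 4 of 11 had one: Asap1 had 7 islands, Agap3 and Arap1 2 each, and Agap2 1. Sh3pxd2b, which encodes the second TKS scaffold, had 4 islands over 80.4 kb and a narrow region in an intron. Slc39a5 and Slc39a7 had 2 islands each, and 4 of 13 other Slc39 zinc transporter genes had at least 1. In the TRAPP complex 2 of 13 had an island, Trappc2l and Trappc12 with 1 each, and narrow regions lay in introns of Trappc5 and Trappc10.

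Among 13 relatives of at least 100 kb, Asap1 (296 kb) had 7 listed islands and Sdk1 (974 kb) 3, and the other 11 were not in the list. That is 15.4% listed, against 19.2% of RefSeq protein-coding genes of this length. Sdk2, at 291 kb in RefSeq, had 16 islands against 3 in Sdk1, and Agap1 had 24 against 7 in Asap1. Rbfox3 had 21, against none listed in Rbfox1 (1528 kb) and Rbfox2 (229 kb). Sorcs2 had 19, against none listed in Sorcs1 (536 kb) and Sorcs3 (599 kb), and Prex1 had 15, against none listed in Prex2 (310.4 kb). The 10 genes were picked for having many islands, so that they exceed their relatives follows from the choice. Acap2 had 2 narrow regions in an intron and Sort1 1 within the gene, both without a listed island.

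**Figure D5:**
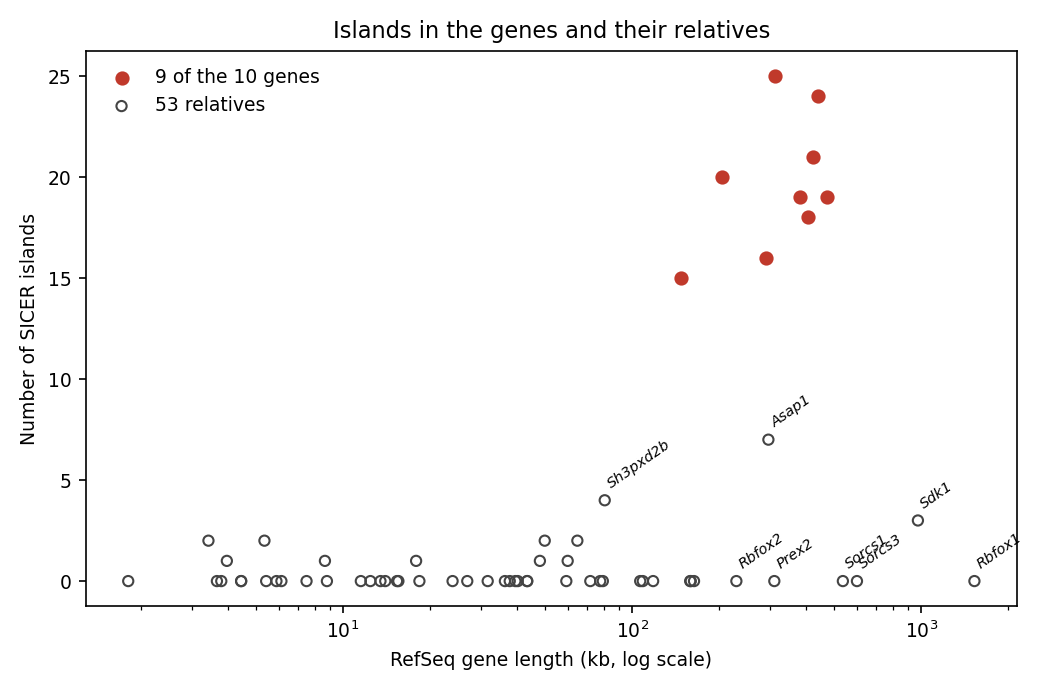
Number of SICER islands (vertical axis) against RefSeq gene length in kb (horizontal log axis) for 9 of the 10 genes (red) and their 53 relatives (open circles); Cmip has no relative in these families. The relatives reach 7 islands (Asap1), and the longest, Rbfox1, has none listed.

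The surroundings of the 10 genes ranged from rich to poor in islands. Within 5 Mb centred on each gene, islands of other genes numbered 227 around Rbfox3, 125 around Prex1, 115 around Sdk2, 113 around Mad1l1, 82 around Slc39a11, 81 around Sorcs2, 75 around Agap1, 73 around Cmip, 53 around Sh3pxd2a and 19 around Trappc9. The median over the 10 genes was 81.5. Centred in the same way on the 408 other listed genes of at least 100 kb, the median was 30 with quartiles of 9 and 61, and on all 4010 other listed genes it was 57 with quartiles of 23 and 105. Of the 10 genes, 8 lay above the upper quartile of the other long genes, while Sh3pxd2a exceeded 69.4% of them and Trappc9 39.2%. Against all other listed genes only Rbfox3 stood at the extreme, above 99.5% of them, and among the remaining 9 the highest was Prex1, above 81.9%, while Trappc9 lay below the lower quartile. Rbfox3, Slc39a11 and Sdk2 lie on chromosome 11, which held 14.5% of all islands. Slc39a11 (113106168 to 113427129) and Sdk2 (113642103 to 113927265) lie close together there. Most of their 5 Mb windows is shared, so their counts are not separate, though both enter the median and the 8 genes above. Gene number moves with these counts, since listed islands lie within 10 kb of a gene: the islands around Rbfox3 were paired with 82 other genes, those around Trappc9 with 11. The part of gene number in the island counts was not tested.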

How the data were processed

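The 4 libraries (2 DNMT3B ChIP, 2 input) are represented by 2 lists deposited by the authors, which give base positions, gene names and distances, and neither counts nor scores. Per the submitters' processing notes, the tools were Bowtie2 (version 2.10), MACS (1.4) and SICER. The name of the narrow list reads MACS2, so the version and the cut-off behind that list are uncertain. The sources used here do not state whether libraries were pooled. Islands start and end in steps of 200 bp. Narrow positions carry at most 6 significant digits, and ends given as a question mark on 2 of 4304 lines were set to the start. Identical lines were counted once. Genes were matched to RefSeq by transcript, symbol or synonym, and 51 genes with several transcripts were given their longest. Gene length, coverage, midpoints, gaps and overlaps were computed in Python 3.11.15 with pandas 2.3.3, numpy 2.4.6 and scipy 1.17.1, and the functions were tested on simulated data. No test was made, since the members were chosen by their island counts and no value belongs to a library. The members and the gene lists were chosen with earlier results of these data known. Named genes were the 10 members, the next 5 genes by islands with ties, and relatives with at least 2 islands or a narrow region; other genes were named after their values were seen. Alternatives were other ways to assign, merge and filter islands, to measure length and to place narrow regions.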

Additional observations from a re-analysis of the deposited data

How the results depend on the processing

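Counts of islands depended on how neighbouring islands are joined and on width. The 195 islands of the 10 genes became 113 when islands less than 2 kb apart were merged, 86 at less than 5 kb, and 106 when only islands of at least the median width of the whole list (4800 bp) were kept. Per gene these gave 6 to 15, 3 to 12 and 3 to 16 islands, against 15 to 25 as listed. The first 2 changes follow from merging and the third from leaving out narrower islands. Gene starts covered by an island went to 5 of 10 with islands within 2 kb. Narrow regions numbered 9 when every line was counted, by repeated lines. The median member exceeded 91.3% of genes of at least 100 kb in islands per 100 kb, and 82.0% of genes of at least 50 kb, where shorter genes enter. The other alternatives moved each of these results by less than 1.5 times, its interval or 5 percentage points, among them 192 islands sharing a base with the gene, 5.94 islands per 100 kb with RefSeq lengths and 29.1% of gene bodies covered by islands of at least the median width. Counting islands paired with another gene, a choice made with the data seen, gave 204 islands and 4 covered starts. No paired analysis was possible because no value in either list belongs to a single library, which also means that none could be left out.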
